A study of Mus musculus with 10 samples.

Results

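The 10 Toll-like receptor (Tlr) genes described here, Tlr1 to Tlr9 and Tlr13, were chosen by gene family name, with earlier results of these data known. They were 10 of the 37417 genes with a count in RNA-seq of s.c. tumors, each Ensembl identifier being matched to its mouse symbol, and all 10 passed the filter on low counts, as did 15299 genes in all. Tlr11 and Tlr12, further mouse members that also passed the filter, are outside these 10 and are described at the end. The tumors were grown in C57BL/6J mice, 12 weeks old per the labels, from Panc02 cells, a mouse pancreatic cancer line, and were taken at day 16. The injected cells of 5 tumors had a guide aimed at Cda (sgCda), which codes for the enzyme that turns cytidine into uridine, and those of the other 5 had a nontargeting guide (sgNT). Cells of both groups also carried a doxycycline-inducible Cas9 and were selected with antibiotics, and the host mice were labelled wild type. Each group rested on 1 guide, and the RNA came from whole tumor tissue, so a host cell's Tlr mRNA and a cancer cell's were counted together.

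Toll-like receptors are membrane receptors with which macrophages, dendritic cells and other cells sense products of microbes and of dying cells. Some sit on the cell surface and bind lipids and proteins, whereas others sit in endosomes and bind nucleic acids, several of them single-stranded RNA and its nucleosides, uridine among them. Once bound, they recruit the adaptors Myd88 or Ticam1, and kinases then switch on NF-κB and interferon regulatory factors, which drive cytokine and interferon genes.

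The libraries held 28051907 to 39484964 counts assigned to genes, and levels are given in CPM, counts relative to a library size scaled by trimmed mean of M values (TMM). At these depths 3 counts equalled 0.0760 to 0.107 CPM, and the 10 receptors together took 326.8 to 449.6 CPM on the unscaled library totals. The opposite ends of the first principal component of all tested genes, which held 40.7% of the variance, were sgCda tumors, replicate 3 at 58.3 and replicate 4 at -56.4. The other 8 tumors were spread between, from -35.8 to 33.7. The summed CPM of 6 skeletal muscle markers was 1796 in sgCda replicate 3, whereas it ran from 1.30 to 444.2 in the sgNT tumors. The tumors held transcripts of the cells known to carry these receptors: the summed CPM of 8 macrophage markers was 2537 to 3617 in sgNT and 2439 to 3628 in sgCda tumors. The summed CPM of 6 epithelial markers was 590.5 to 922.8 in sgNT and 568 to 1016 in sgCda tumors, most of it from Krt8 and Krt18. Mean CPM in sgNT and sgCda tumors was 476 and 452 for Krt8 and 230 and 228 for Krt18. The other 4 were lower, Cdh1 at 18.1 and 16.0, Krt19 at 14.0 and 16.7, Epcam at 1.03 and 1.77 and Krt7 at 0.472 and 0.893. Cda itself was 12.1 ± 1.76 CPM in sgNT and 9.77 ± 2.34 in sgCda tumors (mean ± SD, n = 5 each), and these groups overlapped. These counts cover the whole gene and host cells too, and the paper found Cda mRNA in endothelial cells and fibroblasts sorted from such tumors. They do not measure editing in the cancer cells, which the authors checked by western blot and by RT-qPCR over the targeted region.

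The receptors that differ least in sequence were Tlr1 and Tlr6, neighbours on chromosome 5 that each pair with Tlr2. Of 2976 windows of 50 bases in the Tlr1 transcripts, 454 (15.3%) were also found in Tlr6, and of 3628 windows of Tlr6, 456 (12.6%) were found in another gene. These genes shared 6 identical runs of 53 to 229 bases, 748 bases in all, every base of them coding. A read that lies wholly in such a run aligns to both genes, and the authors' counter drops it. The longest run is shown because it marks where neither gene can be counted, and it lay at chr5:64925537-64925765 in Tlr1 and at chr5:64953828-64954056 in Tlr6, both on the minus strand of GRCm38.
Tlr1 and Tlr6, shared run: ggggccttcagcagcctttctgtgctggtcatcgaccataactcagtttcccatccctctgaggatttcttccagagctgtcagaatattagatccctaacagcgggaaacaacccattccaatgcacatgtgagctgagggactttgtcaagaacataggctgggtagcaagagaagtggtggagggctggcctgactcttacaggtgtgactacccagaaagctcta
Tlr3 shared 1.56% of its windows with Gm45542, whose exons cover 381 of its exonic bases on the opposite strand. The other 7 receptors shared none of their windows with another annotated gene.

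Per kilobase of exon, which allows genes to be compared, Tlr2 was the most abundant receptor and Tlr5 the least, with 134 times more Tlr2 than Tlr5 in the mean over all tumors. Tlr2 stood at 27.9 ± 5.59 CPM per kb in sgNT and 25.9 ± 5.45 in sgCda tumors, and it made up 27.6% and 27.2% of the sum of the 10 receptors. Tlr13 followed with 17.6 ± 1.14 and 16.8 ± 3.88 CPM per kb, then Tlr3 with 13.9 ± 1.59 and 13.0 ± 3.72. A middle group held Tlr4 at 9.88 ± 0.733 and 8.86 ± 1.56, Tlr9 at 9.24 ± 1.49 and 8.50 ± 1.69, and Tlr8 at 8.21 ± 0.873 and 7.79 ± 2.18 CPM per kb. Below them were Tlr1 at 5.94 ± 0.378 and 6.25 ± 1.12 and Tlr7 at 5.32 ± 0.508 and 5.57 ± 1.72 CPM per kb. Tlr6 stood at 2.30 ± 0.0849 and 2.14 ± 0.114, and Tlr5 at 0.218 ± 0.0569 and 0.184 ± 0.132 CPM per kb (all mean ± SD, n = 5 each). The order held in 10 of 10 tumors at 3 steps, Tlr2 above Tlr13, Tlr7 above Tlr6 and Tlr6 above Tlr5. Neighbours elsewhere changed places between tumors: Tlr4 was above Tlr9 in 6 of 10, Tlr1 above Tlr7 in 7, Tlr13 above Tlr3 and Tlr9 above Tlr8 in 8, and Tlr3 above Tlr4 and Tlr8 above Tlr1 in 9. The length used moved some of these counts: per kilobase of the longest coding transcript, Tlr4 stood at 13.5 ± 0.999 and 12.1 ± 2.12 and was above Tlr9 in 10 of 10 tumors, Tlr1 was above Tlr7 in 9 and Tlr9 above Tlr8 in 7. Leaving out the windows shared with another gene raised Tlr1 to 6.87 ± 0.437 and 7.23 ± 1.30 and Tlr6 to 2.62 ± 0.0967 and 2.44 ± 0.130 CPM per kb, with Tlr1 above Tlr7 in 9 tumors. No receptor changed its place in the order of means under either of these lengths.

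**Figure D1:**
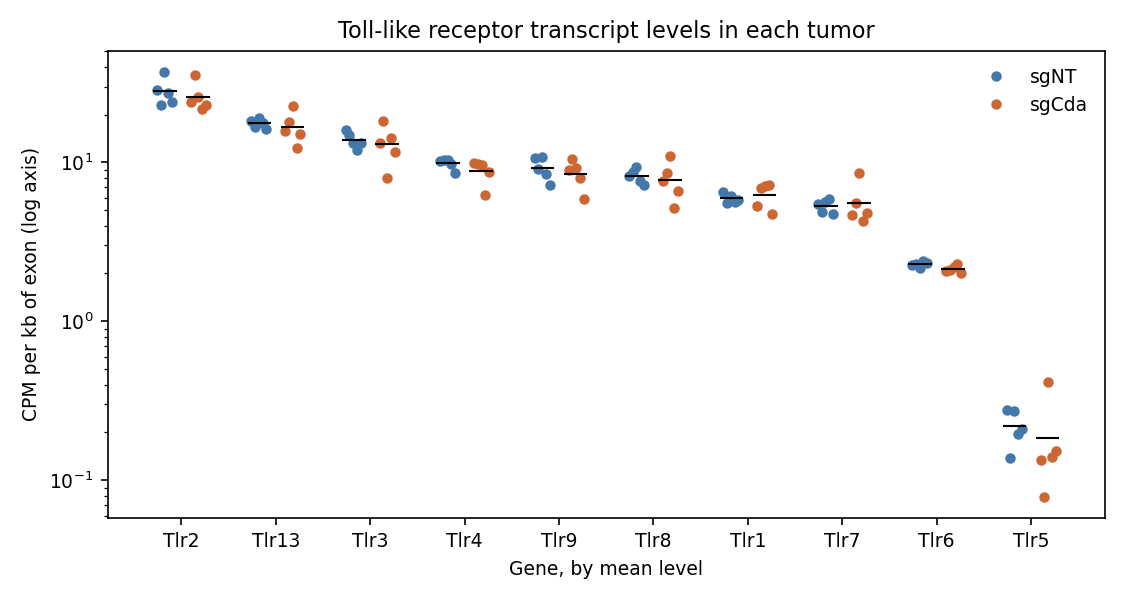
Level of each Toll-like receptor in CPM per kb of exon on a log axis, 1 point per tumor (5 sgNT, 5 sgCda), with a bar at each group's mean. Tlr2 was at the top and Tlr5 at the bottom in each of the 10 tumors, and the sgNT and sgCda points overlapped for every receptor.

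The comparison of sgCda with sgNT tumors asked whether Tlr mRNA changed with the guide aimed at Cda, and no receptor passed edgeR's quasi-likelihood test. Of all 15299 genes tested, 0 (0%) had an adjusted p under 0.05, 382 (2.50%) had an unadjusted p under 0.05 and 92 (0.601%) had groups that did not overlap. Of the 10 receptors, 0 had an adjusted p under 0.05, 0 an unadjusted p under 0.05 and 0 had groups that did not overlap. DESeq2 and limma-voom likewise gave 0 genes with an adjusted p under 0.05. The log2 fold change of sgCda over sgNT was above 0 for 2 receptors and below 0 for 8, with a median of -0.09, whereas 52.9% of all tested genes were above 0 and their median was 0.01. In bulk tumor RNA, fewer cells of a type and less RNA per cell cannot be told apart. In the values that follow, each receptor's adjusted p was 0.9996 in that test.

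Among the surface receptors of lipopeptides, Tlr2 binds them as a pair with Tlr1 or Tlr6. Tlr2 (chr3:83836272-83841767, minus strand of GRCm38) stood at 85.6, 69.1, 111.6, 82.9 and 71.8 CPM in sgNT replicates 1 to 5 and at 72.3, 106.5, 77.3, 65.6 and 69.0 CPM in sgCda replicates 1 to 5. The highest sgNT tumor was replicate 3 and the highest sgCda tumor replicate 2, and the groups overlapped over most of their range (84.2 ± 16.9 against 78.2 ± 16.4 CPM, n = 5 each). The log2 fold change was -0.11 (SE 0.157, 95% confidence interval -0.45 to 0.24). Tlr1 (chr5:64924679-64933563, minus strand) stood at 21.7, 18.6, 20.6, 18.9 and 19.5 CPM in sgNT and at 17.8, 23.0, 23.8, 24.0 and 16.0 CPM in sgCda tumors. The sgCda values lay on both sides of the sgNT values, 3 above and 2 below all of them, and the log2 fold change was 0.07 (SE 0.119, interval -0.19 to 0.34). Tlr6 (chr5:64952031-64960097, minus strand) stood at 8.43, 8.56, 8.12, 8.98 and 8.67 CPM in sgNT and at 7.76, 7.86, 8.20, 8.57 and 7.47 CPM in sgCda tumors. It was the steadiest of the receptors: its coefficient of variation over 10 tumors, 5.66%, was below the 6.07% that counting error alone would give at its 236 to 345 counts. Its log2 fold change was -0.10 (SE 0.0873, interval -0.29 to 0.09), which as a percentage spans a fall of 18.4% and a rise of 6.45%, the narrowest interval among the receptors.

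Tlr4 (chr4:66827584-66930284, plus strand), the receptor of bacterial lipopolysaccharide, stood at 57.0, 57.2, 57.8, 54.5 and 48.0 CPM in sgNT and at 55.3, 54.5, 53.5, 34.5 and 48.5 CPM in sgCda tumors. The other 9 tumors lay between 48.0 and 57.8 CPM, and sgCda replicate 4 lay below them, so that the groups overlapped. The log2 fold change, -0.16 (SE 0.121, interval -0.42 to 0.11), went to -0.05 without that tumor. Tlr5 (chr1:182954788-182976044, plus strand), the flagellin receptor, was near the lower end of what these libraries can measure, with 14 to 71 counts per tumor. It stood at 1.32, 0.663, 1.30, 0.942 and 1.00 CPM in sgNT and at 0.642, 0.381, 1.99, 0.673 and 0.728 CPM in sgCda tumors. Most sgCda tumors were at the low end and sgCda replicate 3 was the highest of all 10. The log2 fold change was -0.24 (SE 0.407, interval -1.13 to 0.65), and leaving out 1 tumor moved it from -0.79 to -0.04. It was -0.79 without sgCda replicate 3 (unadjusted p 0.0191, adjusted p 0.819 in edgeR's test) and -0.04 without sgCda replicate 2 (unadjusted p 0.918).

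The endosomal receptors sense nucleic acids. Tlr3 (chr8:45395665-45411080, minus strand), which binds double-stranded RNA and signals through Ticam1, stood at 83.3, 77.9, 68.6, 62.7 and 68.4 CPM in sgNT and at 68.5, 94.4, 41.5, 74.6 and 60.4 CPM in sgCda tumors. Both the highest and the lowest tumor were sgCda, replicates 2 and 3, so that the sgCda values enclosed the sgNT values. The log2 fold change was -0.09 (SE 0.179, interval -0.48 to 0.31), and it was 0.05 without sgCda replicate 3. The authors' strand setting was not given in the sources used here, so the part of Tlr3 that Gm45542 overlaps may have been counted for either gene or dropped.

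Tlr7, Tlr8 and Tlr13 lie on the X chromosome, Tlr7 and Tlr8 next to each other, and Tlr7 and Tlr13 sense single-stranded RNA or what it is cut into. Tlr7 (chrX:167304929-167330558, minus strand) binds guanosine and single-stranded RNA and stood at 22.3, 19.8, 23.0, 24.1 and 19.3 CPM in sgNT and at 18.9, 22.7, 34.8, 17.4 and 19.7 CPM in sgCda tumors. Tlr8 (chrX:167242696-167264329, minus strand), whose human counterpart binds uridine, stood at 29.3, 31.0, 33.7, 27.3 and 25.7 CPM in sgNT and at 27.2, 30.8, 39.3, 18.5 and 23.8 CPM in sgCda tumors. Tlr13 (chrX:106143204-106160493, plus strand), a receptor of mice without a human counterpart that binds bacterial ribosomal RNA, stood at 78.6, 72.0, 82.0, 76.6 and 69.9 CPM in sgNT and at 68.1, 76.8, 97.8, 52.9 and 65.1 CPM in sgCda tumors. For each of them sgCda replicate 3 was the highest and sgCda replicate 4 the lowest of the 10 tumors, and the sgNT tumors lay between. The log2 fold changes were 0.07 (SE 0.173, interval -0.31 to 0.45) for Tlr7, -0.07 (SE 0.171, interval -0.45 to 0.30) for Tlr8 and -0.07 (SE 0.137, interval -0.37 to 0.23) for Tlr13. Their signs rested on those tumors: Tlr7 went to -0.14 without sgCda replicate 3, and Tlr8 to 0.04 and Tlr13 to 0.02 without sgCda replicate 4. Tlr9 (chr9:106222598-106226883, plus strand), which binds unmethylated CpG DNA, stood at 37.1, 31.8, 37.4, 29.4 and 25.1 CPM in sgNT and at 30.9, 36.3, 32.1, 27.8 and 20.6 CPM in sgCda tumors. The lowest tumor was sgCda replicate 5 and the other 4 sgCda tumors lay within the sgNT range. The log2 fold change was -0.12 (SE 0.153, interval -0.46 to 0.22), and it was -0.015 without sgCda replicate 5.

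**Figure D2:**
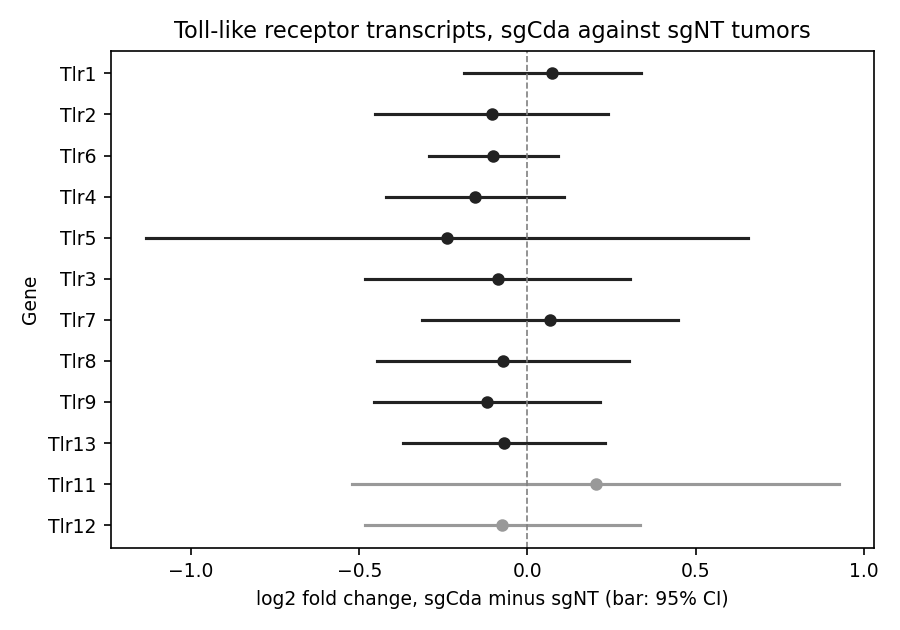
Log2 fold change of sgCda over sgNT for the 10 receptors and, in grey, Tlr11 and Tlr12, with 95% confidence intervals from edgeR's quasi-likelihood fit (n = 5 tumors each). Every interval includes 0, the widest being that of Tlr5 (-1.13 to 0.65) and the narrowest that of Tlr6 (-0.29 to 0.09).

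The receptors differed in how much they varied between tumors. The coefficient of variation over the 10 tumors ran from 13.2% for Tlr1 to 22.1% for Tlr7 among the 8 receptors other than Tlr5 and Tlr6, whereas counting error alone would give 1.96% for Tlr2 and 3.88% for Tlr1, the lowest and highest of these 8. For Tlr5 it was 48.4%, against 19.1% from counting. The SD of the sgCda tumors was 3.40 times that of the sgNT tumors for Tlr13, 3.39 times for Tlr7, 2.97 times for Tlr1, 2.49 times for Tlr8, 2.34 times for Tlr3, 2.32 times for Tlr5 and 2.12 times for Tlr4. It was 1.35 times for Tlr6, 1.13 times for Tlr9 and 0.974 times for Tlr2. The sgCda SD was thus the larger for 9 of the 10 receptors, with a median ratio of 2.33, as it was for 77.0% of all tested genes, with a median ratio of 1.46. The difference in spread was not tested. Of the 10 receptors, sgCda replicate 3 had the highest value of 4 (Tlr5, Tlr7, Tlr8 and Tlr13) and the lowest of Tlr3. The lowest value of 5 (Tlr2, Tlr4, Tlr7, Tlr8 and Tlr13) and the highest of Tlr1 were those of sgCda replicate 4. That library also had the fewest assigned counts, 28051907, and the largest share of reads in no annotated gene. This share was 18.4%, against 10.3% to 14.9% in the other libraries, and its bearing on the receptor values was not tested.

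**Figure D3:**
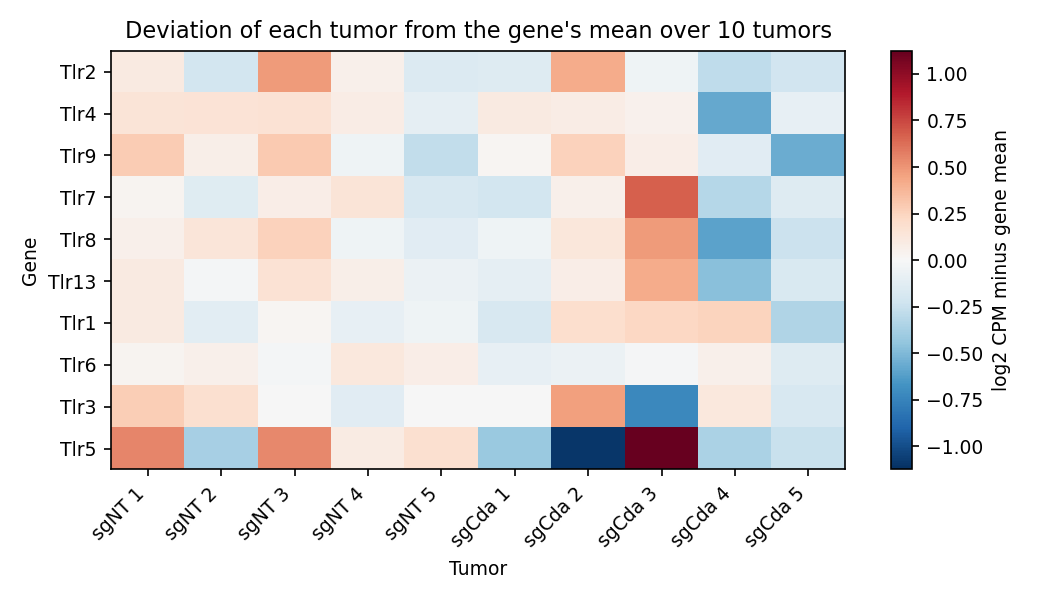
Difference of each tumor's log2 CPM from the mean of all 10 tumors, for each receptor (1 row per receptor, 1 column per tumor). In sgCda replicate 3, Tlr7, Tlr8 and Tlr13 were above their means and Tlr3 below, and in sgCda replicate 4 Tlr4, Tlr7, Tlr8 and Tlr13 were below theirs.

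Across the 10 tumors, Tlr13 rose and fell most closely with Tlr8 and Tlr7, and receptors of other ligands also had high correlations with Tlr8 or Tlr13. Of 45 pairs of receptors, 37 had a positive Pearson correlation of log2 CPM, with a median r of 0.31, and 2 had an adjusted p under 0.05 (permutation test with 100000 resamples, Benjamini-Hochberg over the 45 pairs). Tlr8 and Tlr13 had r = 0.957 (permutation p = 9e-05, adjusted p = 0.00405) and Spearman rho = 0.903 (permutation p = 0.00068, adjusted p = 0.0306). Tlr7 and Tlr13 had r = 0.896 (permutation p = 0.0005, adjusted p = 0.0113) and rho = 0.879 (permutation p = 0.00185, adjusted p = 0.0416). Without the pair of tumors farthest from the median of the receptor named first, sgCda replicates 3 and 4 in both cases, r was 0.812 and 0.850, and no pair then had an adjusted p under 0.05. The Tlr7 and Tlr13 pair also missed the threshold without sgCda replicate 1 and without sgCda replicate 5. For the neighbours Tlr7 and Tlr8, r was 0.797 (permutation p adjusted to 0.111). It was 0.815 for Tlr4 and Tlr8 (permutation p adjusted to 0.0741) and 0.757 for Tlr4 and Tlr13 (adjusted to 0.144). Tlr2 and Tlr13 had r = 0.543 and Tlr9 and Tlr13 r = 0.522, each with rho = 0.818 (permutation p adjusted to 0.0515). For Tlr3 and Tlr13, r was -0.421 (permutation p = 0.217), or 0.03 without sgCda replicates 2 and 3. All of these points share library and scaling, and these pairs were picked out after the values were seen.

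**Figure D4:**
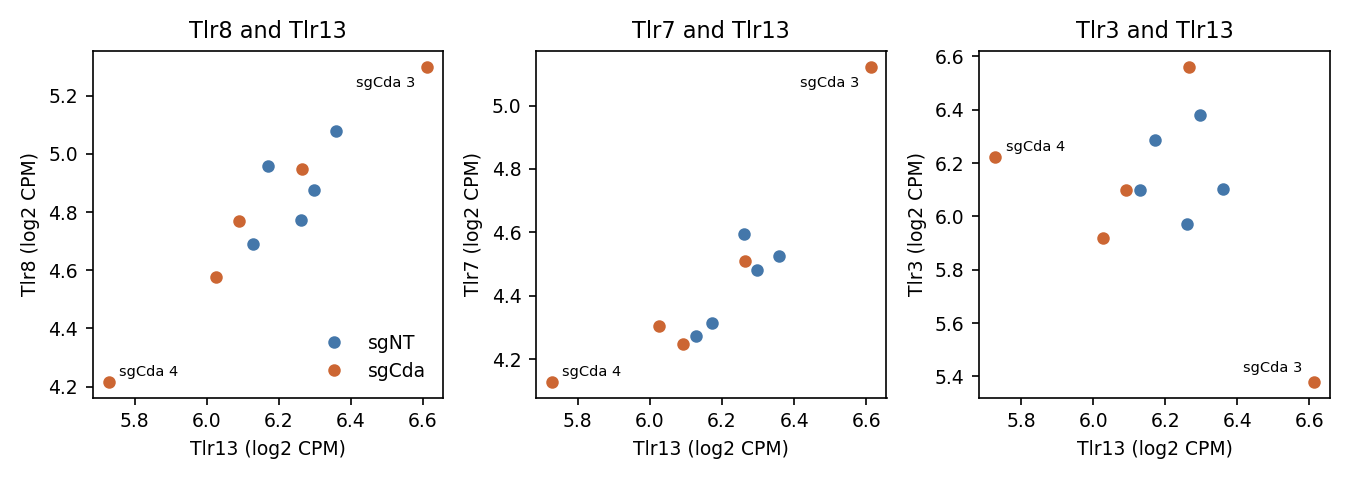
Log2 CPM of pairs of receptors, 1 point per tumor (5 sgNT, 5 sgCda), with sgCda replicates 3 and 4 named. Tlr8 and Tlr13 (r = 0.957) and Tlr7 and Tlr13 (r = 0.896) lie along a line whose ends are sgCda replicates 3 and 4, whereas Tlr3 and Tlr13 (r = -0.421) do not.

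The promoters of Tlr8 and Tlr13, the pair with the highest correlation, are shown because each holds the core letters GAGGAA of the binding site of PU.1, a factor of myeloid and B cells. The 250 bases before the RefSeq start (GRCm38.p6) were searched on both strands, and capitals mark the match, 77 bases before the start in Tlr8 (chrX:167264330-167264579, minus strand) and 83 in Tlr13 (chrX:106143025-106143274, plus strand).
Tlr8: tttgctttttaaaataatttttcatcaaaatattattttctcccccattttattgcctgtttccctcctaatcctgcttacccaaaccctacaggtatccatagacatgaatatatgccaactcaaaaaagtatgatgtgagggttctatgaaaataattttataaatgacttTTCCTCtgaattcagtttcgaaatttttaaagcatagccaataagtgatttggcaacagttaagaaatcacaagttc
Tlr13: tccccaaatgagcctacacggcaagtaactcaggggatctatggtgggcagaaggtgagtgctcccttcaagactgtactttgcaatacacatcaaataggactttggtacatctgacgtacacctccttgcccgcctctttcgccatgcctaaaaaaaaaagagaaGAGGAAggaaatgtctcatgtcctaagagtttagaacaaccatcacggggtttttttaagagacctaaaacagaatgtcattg
In Tlr8 the letters are read on the opposite strand, as TTCCTC. Tlr1 (in 1 of its 2 windows) and Tlr9 held the letters as well, so that 4 of the 10 windows of the 8 receptors with an entry (all but Tlr4 and Tlr7) did, and 23.3% of the 32851 promoter windows of all genes held them. The interferon regulatory factor element, a GAAA followed by any 2 bases and a further GAAA, was found in Tlr6 alone, in 1 of its 2 windows, where it occurred 2 times with an overlap, against 2.98% of all windows. A match of letters is no measured binding.

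Several receptors had high correlations with macrophage, T cell, dendritic cell and neutrophil marker scores, but none passed the adjustment, and the part of these cells in the receptor levels was not tested. The macrophage score, the mean log2 CPM of its 8 markers, was 7.64 ± 0.190 in sgNT and 7.62 ± 0.242 in sgCda tumors. The T cell score of 6 markers was 4.97 ± 0.242 and 4.98 ± 0.588, with the highest value, 5.80, in sgCda replicate 3. Between the groups, 0 of the 11 cell type scores had a p under 0.05 (smallest two-sided exact permutation p = 0.254, for endothelial cells, adjusted p = 0.829). Over 110 relations of 11 scores with 10 receptors, 0 had an adjusted permutation p under 0.05, and the smallest adjusted value, 0.0542, was shared by 4 relations. Macrophage score and Tlr13 had r = 0.820 (permutation p = 0.00119) and rho = 0.842 (permutation p = 0.00429), with r = 0.689 without the pair of tumors farthest from the median score. Macrophage score and Tlr7 had r = 0.780 (permutation p = 0.00197) and rho = 0.806 (permutation p = 0.00755), with r = 0.750 without that pair. T cell score and Tlr8 had r = 0.872 (permutation p = 0.00182) and rho = 0.830 (permutation p = 0.00483), with r = 0.844 without the farthest pair. Conventional dendritic cell score and Tlr3 had r = 0.834 (permutation p = 0.00194) and rho = 0.830 (permutation p = 0.00491), with r = 0.881 without the farthest pair. The adjusted p for rho was 0.111 in 3 of them and 0.119 for macrophage score and Tlr7. T cell score and Tlr13 had r = 0.850 (permutation p = 0.0034, adjusted p = 0.0655) and rho = 0.842 (permutation p = 0.00368), with r = 0.782 without the farthest pair. In the other direction, neutrophil score and Tlr7 had r = -0.827 (permutation p = 0.00357, adjusted p = 0.0655) and rho = -0.721 (permutation p = 0.0234), with r = -0.371 without sgCda replicate 3 and sgNT replicate 4. The remaining relations with an adjusted permutation p under 0.1 were T cell score and Tlr7 (r = 0.811) and macrophage score and Tlr2 (r = 0.801).

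No gene among those that bring the receptors to their place, carry their signal or answer to it passed the test either. Of 67 genes in 6 lists, 66 were tested (all but Cxcl1), and 0 had an adjusted p under 0.05 in edgeR's test. In that test 4 of the 66 had an unadjusted p under 0.05, all of them lower in sgCda. Of all genes tested 2.50% had one, 236 of them higher and 146 lower in sgCda. In the lists 23 genes were above and 43 below 0, with a median log2 fold change of -0.03. Among 11 coreceptors and chaperones (3 above and 8 below 0), the smallest unadjusted p-values belonged to Lbp, which carries lipopolysaccharide, at -0.30 (SE 0.173), and to Cd36, a scavenger receptor that works with Tlr2, at 0.39 (SE 0.313). Among 6 adaptors (1 above, 5 below) they belonged to Tirap, which bridges Tlr2 and Tlr4 to Myd88, at -0.18 (SE 0.0915), and to Sarm1 at -0.27 (SE 0.265). For Tirap the levels were 15.7 ± 1.05 and 13.8 ± 1.44 CPM. None of these 4 passed even the unadjusted threshold.

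Of 14 kinases and ubiquitin ligases, 8 were above and 6 below 0. Traf3, a ubiquitin ligase on the way to interferon, stood at 78.4 ± 3.68 in sgNT and 71.9 ± 2.47 CPM in sgCda tumors, a log2 fold change of -0.13 (SE 0.0543), whereas Chuk, an NF-κB kinase, was at 0.12 (SE 0.0701). Of 8 transcription factors, 1 was above and 7 below 0, and the smallest unadjusted p-values were those of Nfkb2 at -0.10 (SE 0.0600) and Rela, an NF-κB subunit, at -0.07 (SE 0.0468). Rela, picked after its value was seen, was the 1 of the 66 tested genes of the lists whose groups did not overlap. It stood at 111.6 ± 3.21 and 106.0 ± 2.51 CPM. Of all 15299 genes tested, 92 (0.601%) had groups that did not overlap. Of 8 negative regulators, 1 was above and 7 below 0, with Tnip1, which restrains NF-κB, at 68.8 ± 3.48 and 61.5 ± 3.32 CPM (-0.16, SE 0.0601) and Nfkbia at 0.14 (SE 0.144). The adjusted p was 0.9996 in edgeR's test for each gene of these lists.

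Among the 19 tested target genes of the pathway, 9 were above and 10 below 0 with a median of -0.01. Il1b, an inflammatory cytokine gene, stood at 32.0, 19.9, 28.6, 22.5 and 23.8 CPM in sgNT and at 21.0, 16.6, 13.1, 24.0 and 19.1 CPM in sgCda tumors. The sgCda tumors were lower in the mean (log2 fold change -0.44, SE 0.171), but the groups overlapped. Ifnb1, the gene of interferon beta, had only 2 to 51 counts per tumor and stood at 0.337, 0.190, 1.58, 1.38 and 0.101 CPM in sgNT and at 0.0875, 0.0544, 0.308, 0.0709 and 0.316 CPM in sgCda tumors. The pair of high values was in sgNT replicates 3 and 4, and the log2 fold change was -2.07 (SE 0.801). Several sgCda values were at or under 3 counts, where a fold change depends on the prior count used.

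**Figure D5:**
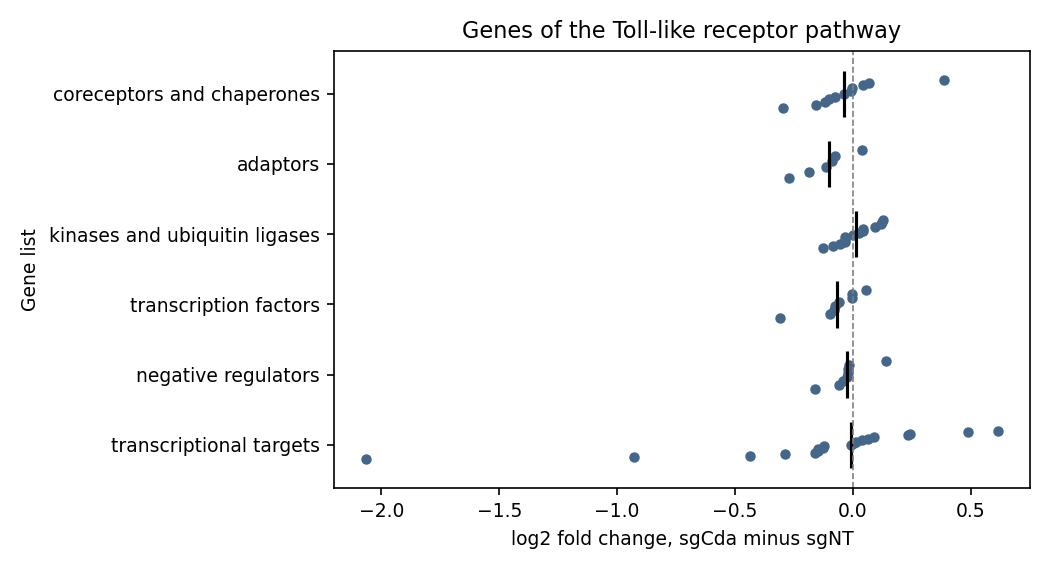
Log2 fold change of sgCda over sgNT for the 66 tested pathway genes, 1 point per gene in 6 lists by role, with a bar at each list's median. The lowest point is Ifnb1 at -2.07 and the highest Il12a at 0.62, and no gene had an adjusted p under 0.05 in edgeR's test.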

How the data were processed

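RNA was measured in 10 tumors, 5 per group, grouped by their titles. The authors extracted RNA with TRIzol, built stranded mRNA libraries, aligned reads to GRCm38 (mm10) with TopHat and Bowtie and counted them per Ensembl gene with HTSeq, and they deposited raw counts. The submitters' processing notes name FastQC 0.11.5, Bowtie2 and HTSeq 07.2. The annotation release and strand setting were not given in the sources used here. HTSeq drops reads that align to several places (0.684 to 0.789 alignments per assigned count) or overlap several genes (2.78% to 2.92% of assigned counts). Its 5 summary lines were left out of library sizes. Among them, reads in no annotated gene came to 10.3% to 18.4% of assigned, ambiguous and no-gene reads together.

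Counts were filtered with filterByExpr (minimum count 10, minimum total 15), scaled by TMM and compared by edgeR 4.0.16 (R 4.3.3), fitting all 10 tumors in a quasi-likelihood model without covariates. Values of p were adjusted by Benjamini-Hochberg over all 15299 genes. DESeq2 1.42.0 and limma 3.58.1 (voom) were alternatives, beside another scaling, no filter, a replicate block, a macrophage covariate and each tumor left out. Scripts were tested on simulated data. Log2 CPM used a prior count of 2. Exon lengths, transcripts and positions came from GENCODE M21 of the same build, and promoters from RefSeq.

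The receptors and lists were chosen with earlier results of these data known. There were 6 pathway lists and 12 marker lists. Genes named were the 10 receptors, Tlr11, Tlr12, Cda, the pair of smallest p in each pathway list and the 3 genes most like each receptor by Pearson r, of which 1 is not reported here. Rela, Il12a and the receptor pairs shown were picked after their values were seen. Nothing in the sources says how the replicates were separated beyond 1 tumor per sample, so p-values measure the spread between these tumors. The counts of any pair of libraries differed by more than sampling noise (chi-square per degree of freedom 10.5 to 152).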

Additional observations from a re-analysis of the deposited data

Results flagged for a closer look

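In 48 groups of 5 tumors, 24 values in each group, namely the 10 receptors, Tlr11, Tlr12, Cda and 11 marker scores, a single tumor was compared with the other 4 by its gap. Chance marks about 1 in 20 groups, or 2.4 of 48, and 3 stood out. Tlr4 was 5.113 log2 CPM in sgCda replicate 4, against 5.600 to 5.790 in the other sgCda tumors. The neutrophil marker score was 2.049 in sgCda replicate 3, against 3.337 to 3.724. The T cell marker score was 5.397 in sgNT replicate 3, against 4.804 to 4.904 in the other sgNT tumors.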

How the results depend on the processing

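Under all 18 alternatives of the group comparison, 0 genes, 0 receptors and 0 pathway genes had an adjusted p under 0.05, and Tlr4, Tlr5, Tlr6 and Tlr9 kept a log2 fold change below 0. Leaving out 1 tumor each in turn gave 0 to 1 receptors with an unadjusted p under 0.05 (Tlr5, without sgCda replicate 3), as did leaving out sgCda replicates 3 and 4 together (1). The log2 fold changes then ran from -0.24 to 0.016 for Tlr2 (above 0 without sgNT replicate 3), -0.24 to 0.046 for Tlr3, -0.14 to 0.15 for Tlr7, -0.23 to 0.045 for Tlr8 and -0.21 to 0.024 for Tlr13. They ran from 0.021 to 0.16 for Tlr1, -0.20 to -0.051 for Tlr4 (nearest 0 without sgCda replicate 4), -0.79 to -0.041 for Tlr5 (without sgCda replicates 3 and 2), -0.13 to -0.079 for Tlr6 and -0.20 to -0.015 for Tlr9 (nearest 0 without sgCda replicate 5). Without sgCda replicates 3 and 4 together, Tlr1 was at -0.072, Tlr3 at 0.043 and Tlr7 at -0.086. Genes with an unadjusted p under 0.05 were 382 of 15299, but 830 of 26302 with no filter, 590 of 26220 by DESeq2's Wald test and 747 of 15377 without sgCda replicate 3. With the replicate number as a block, 325 had one, and 0 genes and 0 receptors passed the adjustment. The check did not show that the numbers pair the tumors: same-numbered tumors correlated from -0.427 to 0.343. In it, 2 of the 5 sgNT tumors correlated best with the sgCda tumor of their own number. With so few tumors it cannot exclude a pairing.

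Receptors related to a marker score at an adjusted permutation p under 0.05 went from 0 to 4 with library totals, 4 with residuals from the group means and 1 without sgCda replicates 3 and 4 together, and ranged from 0 to 4 with 1 tumor left out. They were 4 without sgNT replicate 2, 3 without sgCda replicate 4 and 1 without sgNT replicate 4 or sgCda replicate 3. Without sgCda replicate 4, some of the called relations were negative, with the fibroblast score: Tlr7 (r = -0.860), Tlr8 (r = -0.874) and Tlr13 (r = -0.875). With all tumors these were -0.743, -0.534 and -0.547. The others called without that tumor were T cell score with Tlr8 (r = 0.929) and with Tlr13 (r = 0.888). Called pairs of receptors, 2 in all, ranged from 1 to 4 with 1 tumor left out (1 without sgCda replicate 1 or 5, 4 without sgCda replicate 2 or 3), were 3 with residuals and 0 without sgCda replicates 3 and 4 together. These alternatives for pairs were chosen after seeing the data. The causes were not tested.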

Other observations

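The genes whose levels followed each receptor most closely over the 10 tumors were taken from 10336 genes with a mean log2 CPM of at least 3, or 10337 for Tlr5, and are given as descriptions with Pearson's r. For Tlr13 they included Kcnab2 (0.961) and Lrrc8c (0.961). For Tlr8 they were Prkch (0.973), a protein kinase C gene, Tlr13 (0.957) and Ikzf3 (0.950), a lymphocyte transcription factor gene. For Tlr7 they were Stard7 (0.967), Ms4a6b (0.958) and Fam107b (0.944). Tlr8 was the only one of the 10 with another Toll-like receptor among its 3.

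Tlr2 followed Gpr35 (0.984), Snx20 (0.972) and Cyp4v3 (0.945), and Tlr4 followed Mob1a (0.975), Ptpn11 (0.968) and Gm15564 (0.964). The genes closest to Tlr1 were Arhgap4 (0.950), Actr8 (0.943) and Fyb (0.938), an adaptor gene of T cells and myeloid cells. Those closest to Tlr3 were Mr1 (0.942), which presents vitamin metabolites to T cells, Pak1 (0.940) and Cavin2 (0.938). Tlr9 was closest to Cyld (0.952), a deubiquitinase that restrains NF-κB. The likeness was lowest for the scarce or steady receptors, with Dusp7 (0.899) first for Tlr5 and Hsf1 (0.883) first for Tlr6.

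Mice have a pair of further family members, receptors of profilin-like and other microbial proteins. Tlr11 stood at 13.2, 9.60, 8.53, 3.74 and 8.90 CPM in sgNT and at 9.34, 17.2, 6.66, 10.4 and 7.03 CPM in sgCda tumors, with the lowest tumor in sgNT and the highest in sgCda. Tlr12 stood at 25.1, 27.4, 33.4, 20.7 and 23.4 CPM in sgNT and at 23.2, 35.8, 21.5, 25.7 and 17.2 CPM in sgCda tumors. The groups overlapped for both, with log2 fold changes of 0.20 (SE 0.329) and -0.07 (SE 0.186) and an adjusted p of 0.9996 in edgeR's test.

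No marker of any list was at 0 counts in every tumor. The summed CPM ran from 7.83 to 17.4 in sgNT and 10.1 to 27.0 in sgCda tumors for 5 plasmacytoid dendritic cell markers, and from 4.36 to 5.97 and 5.11 to 7.44 for the 5 B cell markers, of which 3 passed the filter. It was 68.5 to 191.4 and 73.0 to 251.4 for 6 conventional dendritic cell markers and 52.0 to 98.2 and 49.4 to 121.8 for 6 neutrophil markers. For fibroblast markers it was 3096 to 6012 and 3112 to 5168, for endothelial markers 72.7 to 117.3 and 62.4 to 110.9, for adipocyte markers 2.99 to 38.0 and 3.65 to 98.4, and for keratinocyte markers, of which 1 of 5 passed the filter and no score was made, 4.28 to 24.1 and 3.50 to 5.67. The plasmacytoid sum of 27.0 was that of sgCda replicate 3, the tumor with the skeletal muscle sum of 1796. Of the 5 plasmacytoid markers, Cox6a2 differed most between groups, at 2.30 ± 1.97 CPM in sgNT and 6.28 ± 7.80 in sgCda tumors (mean ± SD). It ran from 24 to 694 counts per tumor. The others hardly differed in mean CPM between sgNT and sgCda tumors: Siglech 2.34 and 2.39, Ccr9 2.02 and 2.06, Klk1 0.655 and 0.715, and Pacsin1 4.98 and 5.32. The plasmacytoid sum and score thus rested in part on a marker that did not behave like the rest. The reason was not tested.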
